A study of Zea mays with 24 samples.

Results

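Cytokinin breakdown and storage genes of maize were followed through 6 probe sets of 5 genes, out of 17734 probe sets on the array. The study's own gene table annotates 4 of them as cytokinin oxidase 2 (GRMZM2G050997), cytokinin oxidase 3 (GRMZM2G167220, with 2 probe sets) and cytokinin-O-glucosyltransferase 2 (GRMZM2G041699). The other 2 were taken by name, as the probe sets whose annotated symbol or synonym begins with ckx or cisZOG: ckx1 (GRMZM2G146644) and cisZOG1 (GRMZM2G168474). The study placed its 4 rows in that table for their response in these same samples, so a change in them is not independent evidence. RefSeq (assembly Zm-B73-REFERENCE-NAM-5.0) lists 10 maize genes with such names, not counting the genes with the synonyms cko2 and cko3. It gives GRMZM2G041699 no such symbol and attaches the synonym CISZOG2 to another gene, GRMZM2G110511, so the name cytokinin-O-glucosyltransferase 2 is used here as the study's annotation.

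Cytokinins are adenine-derived hormones that promote cell division in shoots and restrain root growth, and they delay the ageing of leaves. Cytokinin oxidases, also called cytokinin dehydrogenases, destroy them irreversibly by cutting off the side chain. O-glucosyltransferases attach glucose to the side chain of zeatin, which gives a storage form that glucosidases can turn back into active hormone. The active hormone is read by histidine kinase receptors in the membrane, and histidine phosphotransfer proteins carry the signal to response regulators.

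Seedlings of a single maize inbred line, SKV-616, were grown in hydroponic solution and sampled 12 days after transplanting, as root and as shoot. The groups are +Fe+Zn (complete solution, the control), –Zn (no zinc), –Fe (no iron) and –Fe–Zn (neither), each with 3 replicates per tissue, so 24 arrays in 8 groups. The study's methods describe RNA isolated in triplicate and do not say whether the replicates are biological. Each array was placed in its group by its own sample label. For the probe sets it lists, the study's gene table assigns some treatments and tissues to other groups than the labels do. Its root –Zn fold changes match those found here. Its root –Fe values lie close to those found here for root –Fe–Zn. Its root –Fe–Zn values lie close to those found here for shoot +Fe+Zn against root +Fe+Zn. The shoot values of that table lie close to those found with labelled shoot –Fe–Zn in the place of the control. Its shoot –Zn and –Fe values then match labelled shoot –Zn and shoot –Fe, and its shoot –Fe–Zn values match labelled root –Fe. Every shoot comparison below instead takes labelled shoot +Fe+Zn as the control. The metal named in each comparison therefore holds for the groups as labelled, and the assignment of the metals was not tested. The tissues are whole organs, and fewer cells of a type cannot be told apart from less RNA per cell.

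Each value is the deposited log2 signal of a probe set, so a difference of 1 is a 2-fold change. Values of different probe sets are not set against each other, except for the gap between the 2 probe sets of cytokinin oxidase 3. Every array had the same lowest value, 2.24, below which no signal is reported, so a transcript there had no measurable level. Array medians ran from 3.84 to 4.21. Leaf marker genes matched the tissue labels: 16 of their 19 probe sets were higher in shoot than in root under +Fe+Zn, and their summed log2 level was 15.75 to 17.39 on all shoot arrays against 9.90 to 11.38 on all root arrays. The root marker list did not separate the tissues, with 2 of its 7 probe sets higher in root and 3 higher in shoot. Replicates correlated least within root –Fe–Zn (r from 0.952 to 0.987 over all probe sets) and shoot –Fe–Zn (0.974 to 0.988), whereas root –Fe–Zn also had a mean of 12.46 for the BioB-3 hybridisation control against 5.40 in root +Fe+Zn. A control probe set for the middle of the cyclophilin transcript had means of 4.84 (shoot +Fe+Zn), 2.76 (shoot –Zn), 2.77 (shoot –Fe–Zn) and 9.18 (shoot –Fe), whereas group means at its 3′ end lay from 13.57 to 14.20. The part of these differences in the results below was not tested.

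Cytokinin oxidase 2 had its highest values in the shoot. In the root it rose under –Zn and fell under –Fe, and in the shoot it was lower without zinc. In both organs, whether these differences passed depended on the fit. The root +Fe+Zn arrays read 4.64, 4.46 and 4.41. The root –Zn arrays read 5.71, 5.72 and 5.84. The root –Fe arrays read 3.19, 3.17 and 3.45. The 3 groups did not overlap, with –Zn above and –Fe below the control. The rise under –Zn was 1.25 ± 0.32 on the log2 scale (SE, n = 3 per group; 2.38-fold; limma adjusted p = 0.0078), and under –Fe the value fell by 1.23 ± 0.32 (2.34-fold; limma adjusted p = 0.0075). Both calls were lost in a fit on the root arrays alone (limma adjusted p = 0.083 and 0.081, at the same differences), but held in fits of only the 2 groups compared (0.0012 and 0.0021) and without the root –Fe–Zn arrays (3.2e-07 and 2.8e-07). In root –Fe–Zn the arrays read 5.54, 4.03 and 3.45, a spread (SD 1.08) that covered the control, and the mean differed by -0.16 (limma adjusted p = 0.85, 95% interval -0.83 to 0.51). Its sign was not settled, with 0.28 without replicate 3 of that group, 0.10 after quantile normalisation and 0.09 with each array centred on its median. Without replicate 1, cytokinin oxidase 2 fell by 0.76 (limma adjusted p = 6.6e-04).

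In the shoot, cytokinin oxidase 2 read 8.98, 8.81 and 8.96 under +Fe+Zn. It read 8.15, 8.14 and 8.22 under –Zn. Under –Fe–Zn it read 8.52, 8.16 and 8.26. All 6 of these zinc-deprived arrays lay below the 3 controls, by 0.75 and 0.60 on average, but neither difference passed in the fit of all 24 arrays (limma adjusted p = 0.076 and 0.14). With the root –Fe–Zn arrays left out, where this probe set had an SD of 1.08 against at most 0.20 in the other groups, the same differences gave limma adjusted p = 3.1e-05 and 1.9e-04, and on the shoot arrays alone 7.6e-04 and 0.0021. Under –Fe the shoot arrays read 9.25, 8.86 and 9.05 and overlapped the controls (difference 0.14, limma adjusted p = 1, 95% interval -0.54 to 0.81). The shoot +Fe+Zn mean exceeded the root +Fe+Zn mean by 4.41 ± 0.32 (21.3-fold; limma adjusted p = 1.0e-09).

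**Figure D1:**
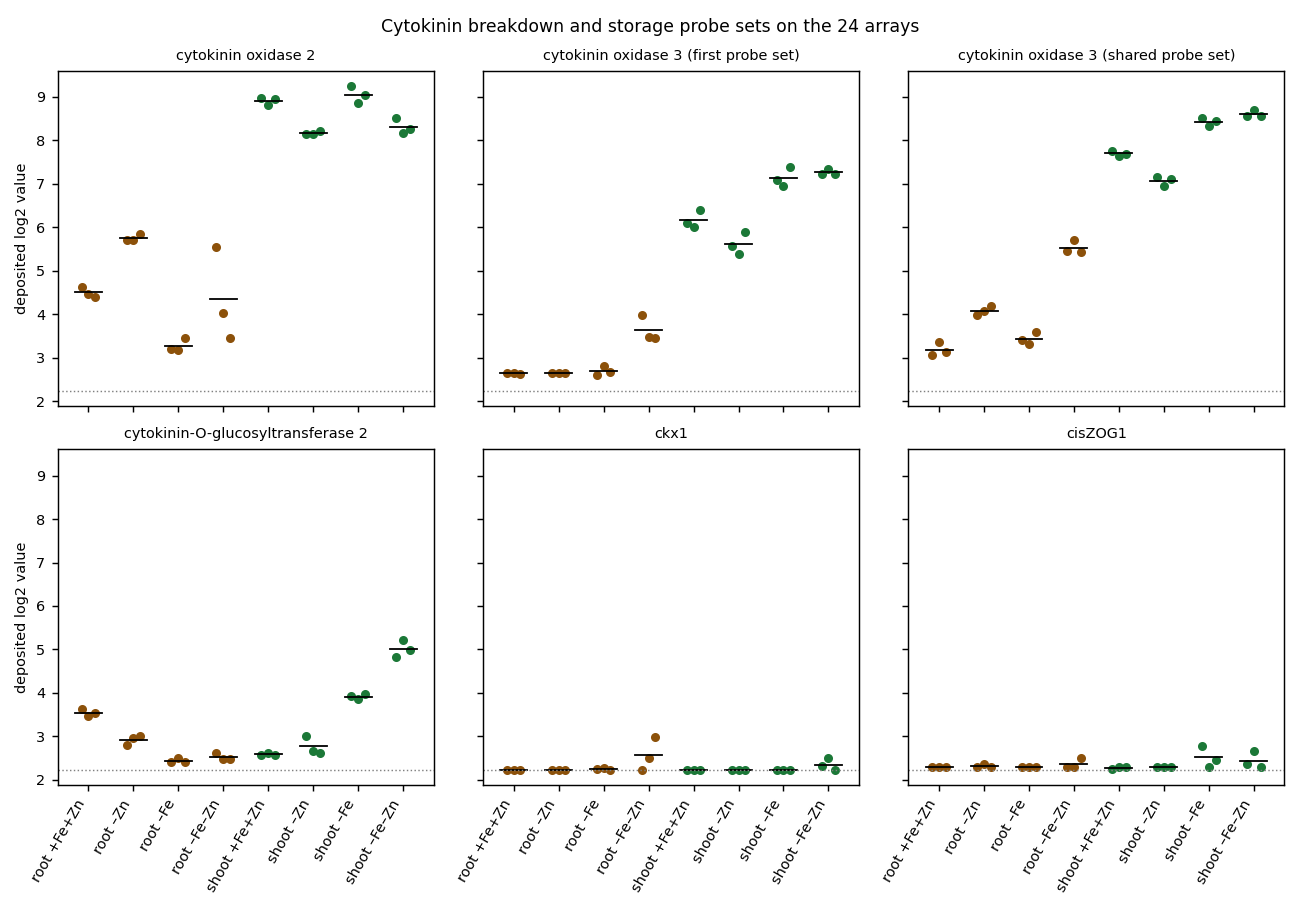
Deposited log2 value (y axis) of each of the 6 probe sets on the 24 arrays in 8 groups (x axis), with a point for each array, a bar for the group mean, brown for root, green for shoot and a dotted line at the lowest value, 2.24. Both cytokinin oxidase genes sit higher on every shoot array than on any root array, cytokinin-O-glucosyltransferase 2 is highest in shoot –Fe–Zn, and ckx1 and cisZOG1 lie at or close to the lowest value.

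Cytokinin oxidase 3 rose in the shoot whenever iron was withheld, fell in the shoot when only zinc was withheld, and rose in the root under –Fe–Zn. The gene has 2 probe sets. The probe set ending in _s_at, called the shared probe set here, holds probes that match more than 1 transcript, so its signal may come from a related gene as well, and the other is called the first probe set.

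On the first probe set, shoot +Fe+Zn read 6.09, 6.01 and 6.40. Shoot –Fe read 7.09, 6.95 and 7.39, and shoot –Fe–Zn read 7.23, 7.35 and 7.22. All 6 arrays without iron lay above the controls, by 0.98 ± 0.14 under –Fe (1.97-fold; limma adjusted p = 3.0e-05) and 1.10 ± 0.14 under –Fe–Zn (2.14-fold; limma adjusted p = 5.6e-06). Shoot –Zn read 5.57, 5.39 and 5.89, all below the controls, and fell by 0.55 ± 0.14 (1.46-fold; limma adjusted p = 0.0051), a call that was lost in a fit of only these 2 groups (limma adjusted p = 0.073). In the root the first probe set stayed between 2.61 and 2.82 on the 9 arrays of +Fe+Zn, –Zn and –Fe. The root –Fe–Zn arrays read 3.98, 3.48 and 3.45, all above these 9, and the rise over +Fe+Zn was 0.99 ± 0.14 (1.99-fold; limma adjusted p = 4.2e-05).

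On the shared probe set the shoot values moved the same way. Shoot +Fe+Zn read 7.77, 7.65 and 7.69, and shoot –Zn read 7.15, 6.96 and 7.11. Shoot –Fe read 8.51, 8.33 and 8.44, and shoot –Fe–Zn read 8.57, 8.69 and 8.55. The –Zn arrays lay below the controls and the arrays without iron above them. The differences were a rise of 0.72 ± 0.09 under –Fe (limma adjusted p = 6.3e-06), a rise of 0.90 ± 0.09 under –Fe–Zn (limma adjusted p = 3.2e-07) and, under –Zn, the value fell by 0.63 ± 0.09 (limma adjusted p = 2.9e-05).

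In the root the shared probe set also responded to zinc alone. The root +Fe+Zn arrays read 3.06, 3.36 and 3.13. The root –Zn arrays read 3.97, 4.08 and 4.19. The root –Fe–Zn arrays read 5.47, 5.72 and 5.42. The 3 groups did not overlap. The rise was 0.90 ± 0.09 under –Zn (1.86-fold; limma adjusted p = 1.4e-06) and 2.35 ± 0.09 under –Fe–Zn (5.11-fold; limma adjusted p = 3.7e-12). Under –Fe the arrays read 3.40, 3.31 and 3.58 and overlapped the controls (difference 0.25 ± 0.09, limma adjusted p = 0.060), a difference that passed without root +Fe+Zn replicate 2 (0.34, limma adjusted p = 0.016), without root –Fe replicate 2 (0.31, limma adjusted p = 0.040) or without the root –Fe–Zn arrays (limma adjusted p = 0.038). The first probe set gave differences near 0 for the same 2 single deficiencies, 0.01 under –Zn (95% interval -0.30 to 0.31) and 0.06 under –Fe (-0.25 to 0.36). That probe set was close to background on those root arrays, where a change may not show. Under +Fe+Zn the shoot exceeded the root by 3.52 ± 0.14 on the first probe set (11.5-fold; limma adjusted p = 3.6e-13) and by 4.52 ± 0.09 on the shared one (22.9-fold; limma adjusted p = 3.5e-17).

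Cytokinin-O-glucosyltransferase 2 ran in opposite directions in the 2 organs: it fell in the root under all 3 deficiencies and rose in the shoot whenever iron was withheld. The root +Fe+Zn arrays read 3.62, 3.46 and 3.55. Root –Zn read 2.81, 2.95 and 3.01. Root –Fe read 2.41, 2.51 and 2.41, and root –Fe–Zn read 2.63, 2.49 and 2.49. No deficient root array reached the lowest control array. The value fell by 0.62 ± 0.10 under –Zn (1.54-fold; limma adjusted p = 1.2e-04), by 1.10 ± 0.10 under –Fe (2.15-fold; limma adjusted p = 1.3e-07) and by 1.01 ± 0.10 under –Fe–Zn (2.01-fold; limma adjusted p = 3.3e-07). These root values are close to the lowest value of the arrays, 2.24, which understates a fall.

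In the shoot, cytokinin-O-glucosyltransferase 2 read 2.58, 2.63 and 2.58 under +Fe+Zn. It read 3.92, 3.85 and 3.97 under –Fe. The –Fe–Zn arrays read 4.84, 5.22 and 5.00. Each –Fe array was above each control and each –Fe–Zn array was above each –Fe array. The rise over the control was 1.32 ± 0.10 under –Fe (2.50-fold; limma adjusted p = 6.1e-09) and 2.42 ± 0.10 under –Fe–Zn (5.36-fold; limma adjusted p = 2.0e-12). Withholding zinc as well as iron added 1.10 ± 0.10 to the –Fe level (2.15-fold; limma adjusted p = 5.1e-08). Under –Zn alone the arrays read 3.01, 2.66 and 2.63 and touched the controls (difference 0.17, limma adjusted p = 0.18, 95% interval -0.03 to 0.38). The +Fe+Zn and –Zn shoot arrays were close to background, where a change may not show. Under complete nutrition this probe set was lower in shoot than in root, by 0.95 ± 0.10 on the log2 scale (1.93-fold; limma adjusted p = 1.1e-07).

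ckx1, the first cytokinin oxidase gene described in maize, was within 0.1 of the lowest value on 21 of 24 arrays. The exceptions were root –Fe–Zn replicates 2 and 3, at 2.51 and 3.00 beside 2.24 in replicate 1, and shoot –Fe–Zn replicate 2, at 2.51. In root –Fe–Zn the mean was 0.34 ± 0.12 above the control (limma adjusted p = 0.035), a call that rested on few arrays: it was lost without replicate 3 of that group (0.14, limma adjusted p = 0.14) and without any 1 of the root +Fe+Zn arrays (limma adjusted p = 0.078 to 0.080). It was also lost on the root arrays alone (limma adjusted p = 0.15), in a fit of only the 2 groups (0.44) and after quantile normalisation (0.054).

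cisZOG1, whose enzyme prefers cis-zeatin, was within 0.1 of the lowest value on 18 of 24 arrays. Its highest group was shoot –Fe, at 2.79, 2.30 and 2.45, against 2.25, 2.29 and 2.29 in shoot +Fe+Zn. None of its 6 differences between a deficiency and the control passed (largest 0.24 ± 0.10, shoot –Fe, limma adjusted p = 0.075), although this one passed without shoot –Fe replicate 2 (0.34, limma adjusted p = 0.010) and after quantile normalisation (0.32, limma adjusted p = 0.0096), and the root –Fe–Zn difference passed with each array centred on its median (0.32, limma adjusted p = 0.016). At such values the array gives no usable level for ckx1 or cisZOG1, and a change below background was not detectable.

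Counts over the 6 probe sets are read against the share of all 17734 probe sets called in the same comparison. In the root under –Zn, 3 of 6 passed, where 21.9% of the array did: 2 were higher (13.4% of the array) and 1 was lower (8.46%). Root –Fe had 2 of 6 (25.6% of the array), both lower (10.9%, with 14.7% higher). Root –Fe–Zn had 4 of 6 (28.1%), with 3 higher (8.09%) and 1 lower (20.0%). The 3 were the 2 probe sets of 1 gene, cytokinin oxidase 3, and ckx1, whose call was lost in the fits given above. In the shoot, –Zn had 2 of 6 (39.3%), both lower (19.0%, with 20.3% higher), a share below that of the array. Shoot –Fe had 3 of 6 (33.4%), all higher (17.0%, with 16.4% lower). Shoot –Fe–Zn had 3 of 6 (44.6%), all higher (22.4%, with 22.2% lower), which is near the background. In each shoot comparison 2 of those called were the probe sets of 1 gene, cytokinin oxidase 3. Between shoot and root under +Fe+Zn, 4 of 6 differed (51.5%), 3 of them higher in shoot (25.5%) and 1 higher in root (26.0%).

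Over the 6, the median difference was 0.02 (root –Zn), 0.01 (root –Fe), 0.21 (root –Fe–Zn), -0.27 (shoot –Zn), 0.48 (shoot –Fe) and 0.53 (shoot –Fe–Zn), while the median over all probe sets was 0.00 in each. Cytokinin oxidase 3 enters the medians over the 6 through both of its probe sets. By the rule of the study's methods, an unadjusted p under 0.05 with at least a 2-fold change, 1 of the 6 was called in root –Zn (7.89% of the array), 2 each under root –Fe (9.60%) and root –Fe–Zn (11.1%). By the same rule 0 were called in shoot –Zn (19.2%), 1 under shoot –Fe (16.2%) and 2 under shoot –Fe–Zn (24.4%), and 3 differed between the organs under +Fe+Zn (36.7%). Of the changes of cytokinin oxidase 3, those of the shared probe set in root –Fe–Zn and of the first probe set in shoot –Fe–Zn met the 2-fold minimum.

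**Figure D2:**
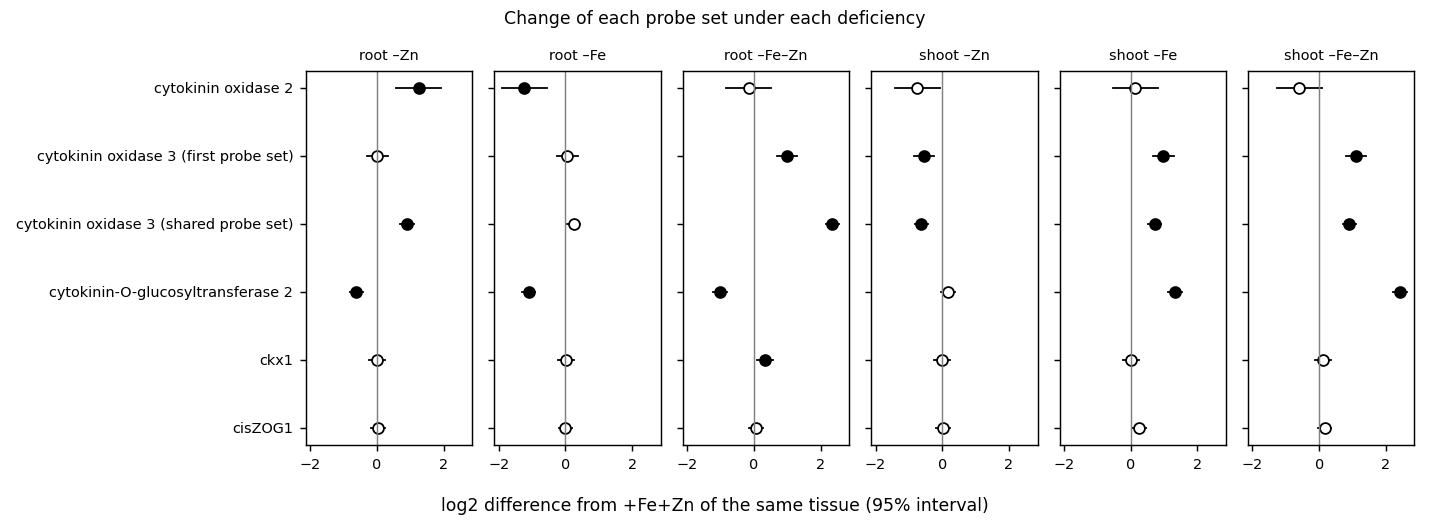
Log2 difference of each probe set (y axis) from +Fe+Zn of the same tissue (x axis) for the 6 deficiencies, with 95% intervals from limma; filled points have an adjusted p under 0.05. Cytokinin-O-glucosyltransferase 2 lies left of 0 in the 3 root panels and right of 0 under –Fe and –Fe–Zn in the shoot, and cytokinin oxidase 2 has the widest intervals.

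Whether the combined deficiency equalled the sum of the single ones was tested as the Fe by Zn interaction, the –Fe–Zn change less the –Zn and –Fe changes together. Cytokinin oxidase 3 changed by more than the sum in both organs. In the root, its first probe set changed by 0.99 under –Fe–Zn against a sum of 0.07 (interaction 0.92 ± 0.20, limma adjusted p = 0.0015), and its shared probe set by 2.35 against 1.15 (1.21 ± 0.13, limma adjusted p = 1.2e-06). The first probe set lay at 2.61 to 2.82 in root +Fe+Zn, –Zn and –Fe, close to background. Its root sum may thus be understated and its root interaction overstated. In the shoot, the first probe set changed by 1.10 against 0.43 (0.67 ± 0.20, limma adjusted p = 0.022), a call lost on the shoot arrays alone (limma adjusted p = 0.060) and when any 1 of 5 arrays was left out (shoot +Fe+Zn replicate 3, –Zn replicate 2, –Fe–Zn replicate 2 or –Fe replicates 1 or 2; 0.55 to 0.64, limma adjusted p = 0.050 to 0.068). The shared probe set in the shoot changed by 0.90 against 0.10 (0.80 ± 0.13, limma adjusted p = 1.7e-04), the fall under –Zn and the rise under –Fe having nearly offset each other in the sum.

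For cytokinin-O-glucosyltransferase 2 in the shoot, the rise of 2.42 exceeded the sum of 1.49 (interaction 0.93 ± 0.14, limma adjusted p = 5.5e-05). Its shoot +Fe+Zn arrays (2.58 to 2.63) and shoot –Zn arrays (2.63 to 3.01) were close to background. The shoot sum may thus be understated and the interaction overstated. In the root the change was -1.01 and the sum -1.72. That sum would put the group at 1.82, under the lowest value the arrays report (2.24), so the sign of the root interaction was fixed by that limit and no test of it is given. For cytokinin oxidase 2 the combined change was close to the sum, with -0.16 against 0.02 (root) and -0.60 against -0.61 (shoot) (limma adjusted p = 0.88 and 1), and in the root the interaction passed without root –Fe–Zn replicate 1 (-0.78, limma adjusted p = 0.0043). Of the 6 probe sets, 3 had an interaction in the root and 3 in the shoot, all positive, with that of cytokinin-O-glucosyltransferase 2 in the root fixed by the lowest value, where 35.7% and 24.4% of all probe sets were called. In each organ 2 of the 3 were the probe sets of 1 gene, cytokinin oxidase 3. The background limits given above also apply to the first cytokinin oxidase 3 probe set in the root and to cytokinin-O-glucosyltransferase 2 in the shoot. Positive interactions made up 10.4% of the array in the root and 11.3% in the shoot, and negative ones 25.3% and 13.1%. By the methods' rule 1 of 6 was called in the root (25.1% of the array) and 0 in the shoot (15.8%).

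**Figure D3:**
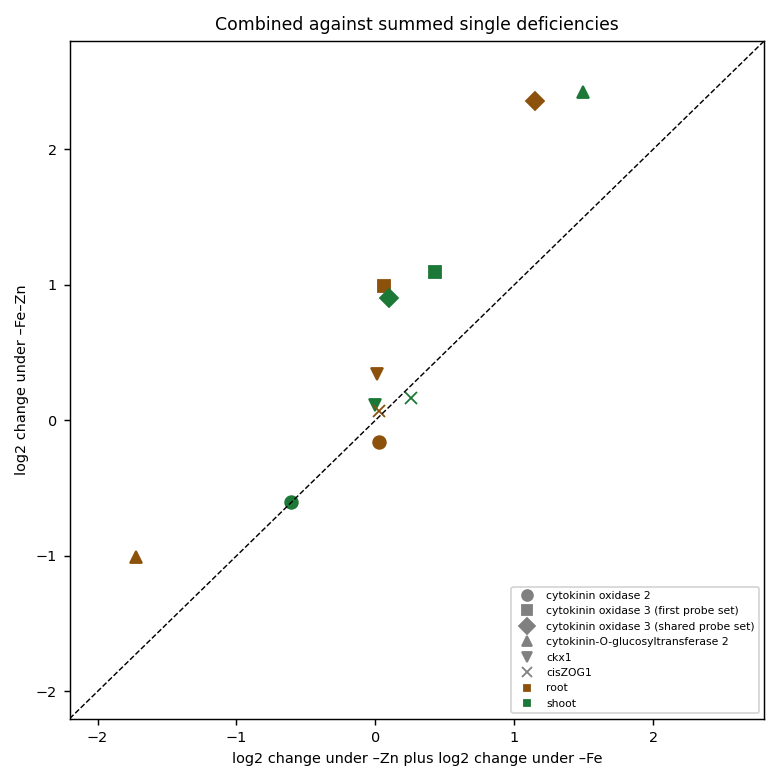
Log2 change under –Fe–Zn (y axis) against the sum of the log2 changes under –Zn and –Fe (x axis) for each probe set, in root (brown) and shoot (green); on the dashed line the 2 are equal. Cytokinin oxidase 3 and cytokinin-O-glucosyltransferase 2 lie above the line in both organs, where the root position of the latter is set by the lowest value the arrays report, and cytokinin oxidase 2 lies close to it. The root sum of the first cytokinin oxidase 3 probe set and the shoot sum of cytokinin-O-glucosyltransferase 2 rest on values close to background.

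The response of root and shoot to the same deficiency was compared as the shoot change less the root change. Under –Zn, 4 of 6 probe sets differed, where 35.2% of all probe sets were called (15.8% with the higher change in shoot and 19.3% with the lower); 2 of 6 met the methods' rule (24.4% of the array). Cytokinin oxidase 2 differed by -2.00 ± 0.45 (limma adjusted p = 0.0019), with a rise in root and lower shoot values. The shared probe set of cytokinin oxidase 3 differed by -1.53 ± 0.13 (limma adjusted p = 1.3e-07), with a rise in root and a fall in shoot. The first probe set differed by -0.56 ± 0.20 (limma adjusted p = 0.042), a call that was lost when any 1 of 10 of the 12 arrays involved was left out (-0.60 to -0.44, limma adjusted p = 0.051 to 0.12). Its root +Fe+Zn and –Zn arrays were close to background, where a change may not show. Cytokinin-O-glucosyltransferase 2, counted among the 4, differed by 0.79 ± 0.14. It fell by 0.62 in the root. Its shoot +Fe+Zn mean was 2.60, too close to the lowest value, 2.24, for an equal fall. The sign of this difference was thus fixed by that limit, and no test of it is given.

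Under –Fe, 4 of 6 differed as well, where 30.4% of all probe sets were called, each with the higher change in shoot (14.1% of the array, with 16.3% lower). By the methods' rule it was 2 of 6 (20.0% of the array). The difference was 2.42 ± 0.14 for cytokinin-O-glucosyltransferase 2 and 0.92 ± 0.20 for the first probe set of cytokinin oxidase 3 (limma adjusted p = 0.0020 for the latter). It was 1.37 ± 0.45 for cytokinin oxidase 2 (limma adjusted p = 0.029, lost when any 1 of 6 arrays was left out, 0.050 to 0.067). The shared probe set of cytokinin oxidase 3 differed by 0.47 ± 0.13 (limma adjusted p = 0.010, or 0.057 after quantile normalisation). Its first probe set was close to background in root +Fe+Zn and –Fe, where a change may not show. For cytokinin-O-glucosyltransferase 2, the root fall of 1.10 could not have been equalled from its shoot control level. The sign of its difference was thus fixed by the lowest value, and no test of it is given.

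Under –Fe–Zn, 2 of 6 differed, 1 in each direction, where 42.1% of all probe sets were called (24.4% with the higher change in shoot and 17.7% with the lower); both met the methods' rule (30.3% of the array). Cytokinin-O-glucosyltransferase 2 differed by 3.43 ± 0.14 (10.8-fold), from a fall in root and a rise in shoot that each passed on its own. The sign of this difference was fixed by the lowest value as under –Fe, and no test of it is given. The shared probe set of cytokinin oxidase 3 rose in both organs and rose less in the shoot, by 1.45 on the log2 scale (limma adjusted p = 1.0e-07). Its first probe set rose alike on the estimate, with a difference of 0.11 (95% interval -0.32 to 0.54) that was -0.25 with each array centred on its median. The root +Fe+Zn arrays of the first probe set were close to background, so its root rise may be understated.

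Set in order, the group means of cytokinin oxidase 2 ran from shoot –Fe (9.05) through shoot +Fe+Zn, shoot –Fe–Zn and shoot –Zn (8.17) to root –Zn (5.76), root +Fe+Zn, root –Fe–Zn and root –Fe (3.27). The steps between neighbours among the 4 shoot groups, and from root +Fe+Zn to root –Fe–Zn, did not pass in the fit of all 24 arrays, although the arrays of shoot +Fe+Zn and shoot –Fe–Zn did not overlap. Both probe sets of cytokinin oxidase 3 had the order shoot –Fe–Zn, shoot –Fe, shoot +Fe+Zn, shoot –Zn and root –Fe–Zn. Here the step between the 2 iron-deprived shoot groups did not pass (0.12 and 0.18, limma adjusted p = 0.59 and 0.14), although on the shared probe set their arrays did not overlap, while shoot –Zn exceeded root –Fe–Zn by 1.98 and 1.54. Cytokinin-O-glucosyltransferase 2 ran from shoot –Fe–Zn (5.02) and shoot –Fe (3.92) to root +Fe+Zn (3.54) and root –Zn (2.92), each step passing the test. Below root –Zn, the steps to shoot –Zn, shoot +Fe+Zn, root –Fe–Zn and root –Fe (2.44) were at most 0.17 and none passed.

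The annotated genes with the most similar pattern over the 24 arrays, out of 1447 candidates, were sought by Pearson correlation, as a description over arrays that share the gap between root and shoot. For cytokinin oxidase 2 they were the gene named 9-24 (r = 0.974), fad7 (0.964; a plastid fatty acid desaturase) and GRMZM2G086763 (0.963). For the first probe set of cytokinin oxidase 3 they were tha9 (0.972), BCH2 (0.964; a carotene hydroxylase) and GRMZM2G086763 (0.962), and for its shared probe set Cystatin (0.953; a protease inhibitor), SSu (0.946; the small subunit of Rubisco) and GRMZM2G086763 (0.943). Cytokinin-O-glucosyltransferase 2 was followed less closely, by psk1 (0.890), MGL3 (0.880) and GRMZM2G425728 (0.873).

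The genes that sense and relay cytokinin were represented by 17 probe sets of 16 genes, of which 13 passed in at least 1 of the 6 deficiency comparisons. In the shoot most of the calls were falls. Under –Zn 6 were lower and 0 higher, where 39.3% of the array was called and 19.0% was lower. Under –Fe 8 were lower and 1 was higher, where 33.4% of the array was called and 16.4% was lower. Under –Fe–Zn 6 were lower and 2 higher, where 44.6% of the array was called and 22.2% was lower. The shares called under –Zn and –Fe–Zn are near the background. In the root 2 were lower and 2 higher under –Zn (21.9% of the array called), 1 was lower and 1 higher under –Fe (25.6%), and 5 were lower and 2 higher under –Fe–Zn (28.1%, with 20.0% lower). The median difference of the 17 was 0.00, -0.44 and -0.19 in the shoot for –Zn, –Fe and –Fe–Zn.

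Among the receptors, the shoot changes split. HK3a fell in the shoot under all 3 deficiencies, by 1.28 (–Zn), 1.30 (–Fe) and 0.65 (–Fe–Zn; limma adjusted p = 2.2e-06, 1.6e-06 and 0.0015). It also fell in the root, by 0.53 under –Zn and 0.68 under –Fe–Zn (limma adjusted p = 0.015 and 0.0021). hk2 fell in the shoot by 0.41 under –Zn and by 0.85 under –Fe (limma adjusted p = 0.025 and 8.4e-05). HK1 rose in the shoot by 1.43 under –Fe and 0.80 under –Fe–Zn (limma adjusted p = 9.9e-06 and 0.0020).

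Of the phosphotransfer genes, HP1 and ZmHP2 fell in all 3 shoot comparisons and rose in root –Zn. HP1 read 10.19, 10.22 and 10.10 in shoot +Fe+Zn against 7.71, 8.16 and 8.53 under –Zn. The shoot –Fe–Zn arrays read 8.28, 7.36 and 7.70. It fell by 2.04 (–Zn), 0.86 (–Fe) and 2.39 (–Fe–Zn; limma adjusted p = 2.8e-07, 0.0023 and 2.4e-08). ZmHP2 fell by 0.67, 1.04 and 1.60 in the same order (limma adjusted p = 0.0041, 9.4e-05 and 4.7e-07). In root –Zn the rise was 0.64 for HP1 and 0.72 for ZmHP2 (limma adjusted p = 0.027 and 0.0049). HP3 fell in the shoot by 1.59 under –Fe and 1.07 under –Fe–Zn (limma adjusted p = 9.2e-09 and 9.0e-07), did not pass in shoot –Zn (-0.30, limma adjusted p = 0.056), and rose in the root by 0.68 and 0.62 (limma adjusted p = 3.0e-04 and 7.1e-04).

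Of the response regulators, RR10 fell in the shoot by 0.45, 0.44 and 0.47 under –Zn, –Fe and –Fe–Zn (limma adjusted p = 0.0020, 0.0027 and 0.0013). RR4 has 2 probe sets that disagreed: 1 rose by 1.54 in shoot –Fe–Zn (limma adjusted p = 2.2e-04) and fell by 0.92 in root –Fe–Zn (limma adjusted p = 0.023), while the other rose by 0.68 in root –Fe–Zn (limma adjusted p = 0.0011) and did not pass in the shoot. RR11 fell in the root by 0.78 under –Zn and 0.68 under –Fe–Zn (limma adjusted p = 0.018 and 0.032). From a mean of 3.31 in root +Fe+Zn it reached 2.52 and 2.62, close to background, which may understate these falls. RR5 fell in the root by 0.42 under –Fe and 0.46 under –Fe–Zn (limma adjusted p = 0.045 and 0.024). Its shoot fall under –Fe was 0.65 (limma adjusted p = 0.0016). RR8 was lower by 0.40 in root –Fe–Zn (limma adjusted p = 0.014). Its shoot falls were 0.46 under –Zn and 0.35 under –Fe–Zn (limma adjusted p = 0.0035 and 0.020), the latter with overlapping arrays. RR6 passed only under –Fe in the shoot, with a fall of 0.45 (limma adjusted p = 0.024).

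**Figure D4:**
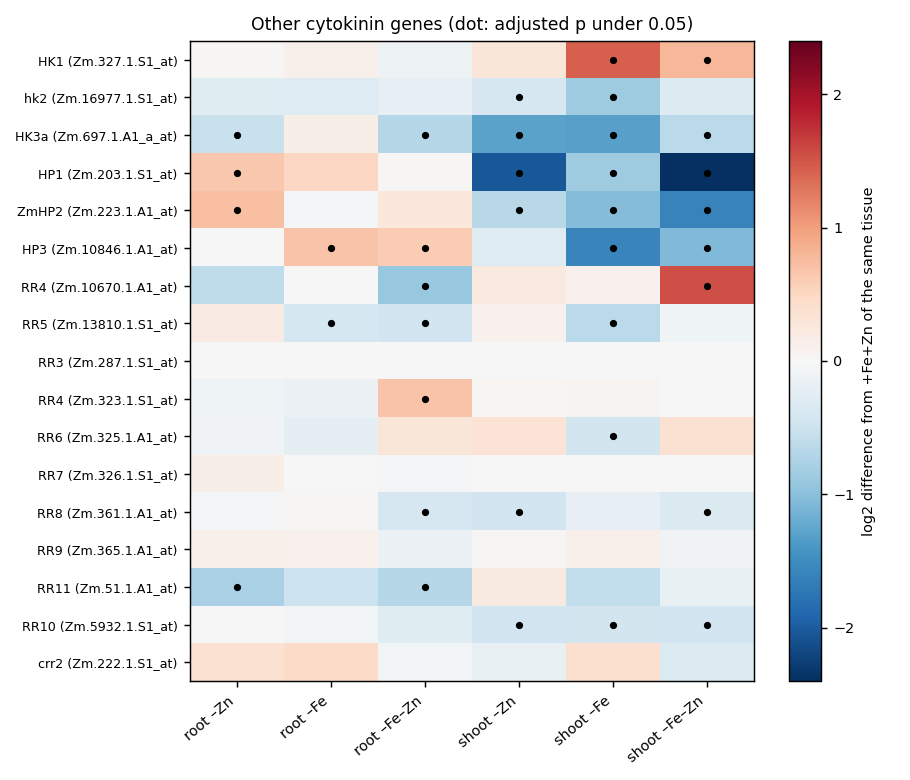
Log2 difference from +Fe+Zn of the same tissue (colour) for 17 probe sets of other cytokinin genes (y axis, gene name and probe set) in the 6 deficiency comparisons (x axis), with a dot where the adjusted p was under 0.05. HP1, ZmHP2 and HK3a are lower in all 3 shoot columns, and HK1 is higher under –Fe and –Fe–Zn in the shoot.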

How the data were processed

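Total RNA (about 300 ng per sample) was biotin-labelled and hybridised to 24 Affymetrix GeneChip Maize Genome Arrays, 3 replicates in each of 8 groups. By the study's methods, the authors made the deposited log2 values with GCRMA, whereas RMA, affy and limma appear, with no version, among the tools of the submitters' notes, so the background correction was not settled. Values were used as deposited. In R 4.3.3 with limma 3.58.1, 1 model with 8 group means was fitted to all 17734 probe sets, including 113 control probe sets, with eBayes variances. P-values were adjusted by Benjamini-Hochberg across the whole array and called under 0.05; every adjusted p is from limma. The pooled spread uses all 8 groups. A permutation of 3 against 3 cannot give p under 0.1, so none was run. The fit was tested on simulated data.

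The array annotation names 1 gene for 1452 probe sets and holds no gene titles, so lists were drawn from symbols and synonyms; crr2 was added by name. All 6 members are described, and 4 reached the brightness filter (a group mean of at least 3.00, the 40th percentile of all values). The 3 genes of closest pattern were named for each of those 4. Other cytokinin genes with an adjusted p under 0.05 in at least 1 deficiency comparison were named with values. The members and lists were chosen with earlier results of these data known. Alternatives were the methods' rule (unadjusted p under 0.05 and at least 2-fold), that minimum with the adjusted p, fits on 1 tissue or 2 groups, median centring, quantile normalisation, a dim filter, no control probe sets, a trended robust prior, the replicate number as a block and each array left out. Leaving out the root –Fe–Zn arrays, or those of shoot –Zn and –Fe–Zn, was chosen after seeing the data.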

Additional observations from a re-analysis of the deposited data

Results flagged for a closer look

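Differences between the shoot and root change under the same deficiency, each tested as a contrast of the same limma model, were singled out for a closer look. Under –Zn the shoot change less the root change was -2.00 for cytokinin oxidase 2, -0.56 and -1.53 for the first and shared probe sets of cytokinin oxidase 3, and 0.79 for cytokinin-O-glucosyltransferase 2. Under –Fe it was 1.37 for cytokinin oxidase 2, 0.92 and 0.47 for the first and shared probe sets of cytokinin oxidase 3, and 2.42 for cytokinin-O-glucosyltransferase 2. Under –Fe–Zn it was -1.45 for the shared probe set of cytokinin oxidase 3 and 3.43 for cytokinin-O-glucosyltransferase 2. For cytokinin-O-glucosyltransferase 2 the sign was fixed by the lowest value under each deficiency. The background limit given above applies to the first cytokinin oxidase 3 probe set. Groups of 3 arrays were not tested for single outlying samples.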

How the results depend on the processing

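Over the alternatives, 1284 of 1380 refitted differences of the 6 probe sets kept their side of the threshold, 75 lost a call and 21 gained one. No called difference changed sign, but 30 differences with no call did, among them cytokinin oxidase 2 in root –Fe–Zn and cytokinin-O-glucosyltransferase 2 in shoot –Zn (0.17, or -0.12 after quantile normalisation). Of the 75, the 2-fold minimum accounts for 38. With it, under the methods' rule and with the adjusted p alike, the number of members called was 1 (root –Zn), 2 (root –Fe–Zn), 0 (shoot –Zn) and 1 (shoot –Fe), 1 and 0 for the interactions in root and shoot, and 2 each for the tissue differences under –Zn and –Fe. On the arrays of 1 tissue, 1 member was called in root –Fe. Without the root –Fe–Zn arrays, 5 were called in shoot –Fe–Zn, with cytokinin oxidase 2 and ckx1 (0.11, limma adjusted p = 0.039) added. When each array was left out in turn, the number of members with an interaction in the root ran from 3 to 5. The 5 were reached without root –Fe–Zn replicate 1, which added cytokinin oxidase 2 and ckx1 (0.50, limma adjusted p = 0.0033). These numbers include cytokinin-O-glucosyltransferase 2, whose root interaction was fixed in sign by the lowest value. The other counts stayed within 1.5 times their value. Same-numbered replicates did not deviate together (r from -0.469 to 0.292 over 36 pairs of arrays from 12 pairs of groups within a tissue, 9 of them over 0.1, and from -0.183 to 0.115 over 48 pairs of a root with a shoot array, 2 of them over 0.1), and the replicate number as a block changed none of the 72 calls, with 3, 2 and 4 root members and 2, 3 and 3 shoot members called under –Zn, –Fe and –Fe–Zn. Precision is set by 3 arrays per group and, for ckx1, cisZOG1 and the root values of cytokinin oxidase 3 and cytokinin-O-glucosyltransferase 2, by signal close to background. The same limit holds for cytokinin-O-glucosyltransferase 2 in shoot +Fe+Zn and –Zn, and for RR10 and RR11.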

Other observations

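The gap between the shared and the first probe set of cytokinin oxidase 3 (shared less first, on the log2 scale, a difference of 2 probe sets with unlike binding) was not constant over the arrays. It ran from 0.40 to 0.70 in root +Fe+Zn and from 0.50 to 0.90 in root –Fe, and was 1.32 to 1.54 in root –Zn and 1.49 to 2.24 in root –Fe–Zn. In root +Fe+Zn, –Fe and –Zn the first probe set stayed between 2.61 and 2.82, close to background, so the gap there followed the shared probe set. In the shoot the gap lay between 1.04 and 1.67 on all arrays.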
